A study of Mus musculus with 7 samples.

Results

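The Mouse Transcriptome Array carried 606 transcript clusters, the array's units of summary, whose only gene symbol was that of a microRNA, out of 65770 transcript clusters in all. They were taken by annotation alone, as the clusters whose symbol begins with Mir and a digit or with Mirlet, and no measured value entered the choice. Of the 606 clusters, 601 carried the name of a hairpin gene and 5 that of a longer host transcript (Mir1a-1hg, Mir124-2hg, Mir9-3hg, Mir100hg and Mir99ahg). They held 579 symbols, because 23 symbols each had several clusters, 50 clusters between them. The RNA came from cultured HM-1 cells, a mouse ovarian cancer line, in 3 groups: cells stably transduced with the Snail-targeting hairpin sh1 (2 arrays), cells with a second Snail-targeting hairpin, sh2 (2 arrays), and control cells with a non-silencing hairpin (3 arrays). The 4 sh1 and sh2 arrays are called shSnail where they form 1 group, and 4 values listed for shSnail cells are the 2 of sh1 followed by the 2 of sh2. All 3 groups were made with GIPZ lentiviral particles, so that the control cells carried a vector and a hairpin too. The samples of a group are labelled as biological replicates, but nothing states that a hairpin was introduced more than once, so the p-values measure the spread between these samples.

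Snai1, the gene that encodes Snail, had log2 signals of 6.80 and 6.55 in sh1 cells and of 6.69 and 6.77 in sh2 cells, against 6.61, 6.69 and 6.70 in control cells, and lay above 85.6% of the array's negative control probe sets. No lower Snai1 signal was seen, so the directions given below rest on how the arrays are labelled. The keratin genes Krt8 and Krt18, markers of epithelial cells, had mean log2 signals of 16.5 and 16.8 in shSnail cells and of 16.5 and 16.6 in control cells. The leukocyte marker Ptprc and the endothelial marker Pecam1 averaged 4.22 and 4.70 in shSnail cells and 4.22 and 4.68 in control cells, less than the negative controls' median (4.94 over the 7 arrays).

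MicroRNAs are made from longer primary transcripts, in which the sequence folds into a hairpin. Drosha with its partner Dgcr8 cuts out the hairpin in the nucleus, Xpo5 exports it, Dicer1 cuts it into a short duplex, and 1 strand of the duplex is loaded into an Argonaute protein, where bases 2 to 8, the seed, pair with target messenger RNAs. Many hairpins lie in introns of protein-coding genes and are transcribed with them, and others are carried several at a time on 1 primary transcript. Snail and the related ZEB factors are known to act in mutual repression with the miR-200 and miR-34 families, which favor the epithelial state. The array labels whole transcripts, so a cluster named for a microRNA reads primary, precursor and overlapping host RNA together, and spin-column extraction of the kind used here is known to lose most RNA of mature microRNA length.

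The sequences of the members on which the results turn are given from RefSeq (GRCm38.p6), where 440 of the 606 clusters found a hairpin, 425 of them on the chromosome that the cluster's identifier gives. In each line the seed is in capitals. The first set holds the mature strands of 3 of the 4 members that passed a test in shSnail or sh2 cells. Their hairpins lie at chr10:61774737-61774821 (Mir5108, plus strand), chr12:109742409-109742498 (Mir541, plus strand) and chr10:93162785-93162903 (Mir1931, plus strand).
mmu-miR-5108: gUAGAGCAcuggaugguuu
mmu-miR-541-5p: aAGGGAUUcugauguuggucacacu
mmu-miR-541-3p: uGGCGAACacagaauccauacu
mmu-miR-1931: aUGCAAGGgcuggugcgauggc
The whole hairpins of Mir5108 and Mir1931 are shown because an array of this kind reads the hairpin and its surroundings, not the mature strand alone. The capitals again mark the seed of the mature strand.
Mir5108 hairpin: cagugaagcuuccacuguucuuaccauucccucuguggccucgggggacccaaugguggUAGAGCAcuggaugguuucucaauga
Mir1931 hairpin: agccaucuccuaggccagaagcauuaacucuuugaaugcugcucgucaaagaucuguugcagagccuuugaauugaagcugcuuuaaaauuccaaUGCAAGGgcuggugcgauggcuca
The next set shows the miR-200 family, the microRNAs most often tied to the epithelial state. Its 4 measured members fall into 2 pairs by seed, and each genomic neighborhood (Mir200a with Mir200b on chromosome 4, Mir141 with Mir200c on chromosome 6) holds 1 of each.
mmu-miR-200a-3p: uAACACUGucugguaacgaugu
mmu-miR-141-3p: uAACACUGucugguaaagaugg
mmu-miR-200b-3p: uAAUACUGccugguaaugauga
mmu-miR-200c-3p: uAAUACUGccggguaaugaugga
A further set shows neighboring hairpins whose signals are described together further on. Mir221 and Mir222 lie side by side on the X chromosome and share a seed, and Mirlet7d, Mirlet7f-1 and Mirlet7a-1 follow one another on chromosome 13 and share the let-7 seed, the most common among the matched members (12 symbols).
mmu-miR-221-3p: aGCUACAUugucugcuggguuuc
mmu-miR-222-3p: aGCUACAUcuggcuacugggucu
mmu-let-7d-5p: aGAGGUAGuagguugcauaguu
mmu-let-7f-5p: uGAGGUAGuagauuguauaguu
mmu-let-7a-5p: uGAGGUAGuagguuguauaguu
Finally, Mir466k and Mir467h stand for a group of members above background whose hairpins, shown here whole with the seed in capitals, are rich in U and G repeats. They lie at chr3:85467377-85467498 and chr9:115381819-115381939, both on the plus strand.
Mir466k hairpin: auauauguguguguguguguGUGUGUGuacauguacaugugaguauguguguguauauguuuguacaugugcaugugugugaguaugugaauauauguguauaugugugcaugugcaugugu
Mir467h hairpin: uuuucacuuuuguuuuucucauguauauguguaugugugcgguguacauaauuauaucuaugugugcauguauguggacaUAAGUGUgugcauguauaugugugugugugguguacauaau

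Most microRNA clusters stayed within the range that held nearly all of the 5222 negative control probe sets. On the sh1 arrays 46 and 44 of the 606 clusters exceeded the 95th percentile of the negative controls, on the sh2 arrays 45 and 44, and on the control arrays 47, 47 and 48. Only 43 clusters (7.10%) did so on all 7 arrays, compared to 14.8% of all transcript clusters, and 557 did so on none. At the stricter 99th percentile 22 clusters remained on all 7 arrays. The negative controls' median was passed on every array by 34.3% of the microRNA clusters and by 33.9% of all clusters. The plot of cumulative signals sets the 3 distributions side by side.

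**Figure D1:**
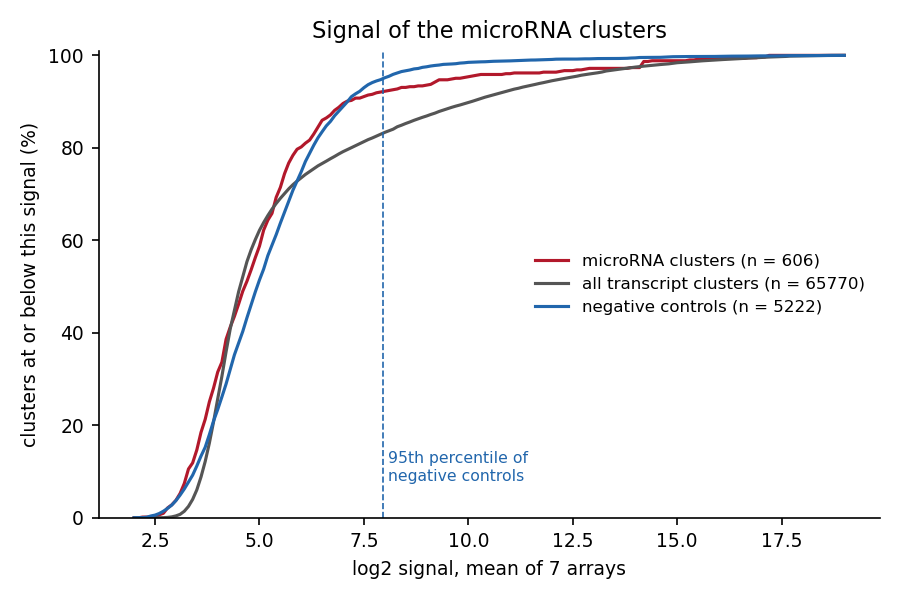
Cumulative share of clusters (percent, y axis) at or below each log2 signal averaged over the 7 arrays (x axis) for the 606 microRNA clusters, all 65770 transcript clusters and the 5222 negative controls. The dashed line marks the 95th percentile of the negative controls (7.97), which 43 microRNA clusters exceeded on every array.

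The members above this background were mostly multicopy hairpins. By group means, 49 clusters exceeded the 95th percentile in at least 1 group. They included 10 clusters of the Mir466, 5 of the Mir669 and 4 of the Mir467 stem, which are hairpins rich in UG repeats, all 7 Mir684 clusters and several members of the Mir3470, Mir3471 and Mir3473 stems. The 12 clusters with the highest means were Mir3473a, Mir703, both Mir3470b clusters, a cluster of Mir1954, Mir692-1, Mir3473f, Mir684-2 and 4 of the 5 tied clusters of Mir684-1, with mean log2 signals from 14.2 to 17.1. Mir703 reached 17.08 and 17.12 in sh1 cells and 17.12 and 16.95 in sh2 cells, against 17.19, 17.23 and 17.12 in control cells. Of the 7 Mir684 clusters, 5 held the same 7 values although their identifiers place them on different chromosomes, and in all 34 members shared all 7 values with another member. These values cannot be assigned to single loci. Among the 50 clusters of symbols with several clusters 25 were above the background, compared to 24 of the 556 clusters of symbols with 1 cluster.

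Conserved microRNAs above background were few. Mirlet7d, a let-7 gene whose mature product restrains proliferation genes, was the single member above background in the lists of named families, the Sfmbt2 intron aside. It had log2 signals of 9.15 and 9.15 in sh1 cells and 9.66 and 9.96 in sh2 cells, against 8.59, 9.10 and 8.89 in control cells. Every shSnail array lay above every control array. The difference, 0.62 on the log2 scale (standard error 0.25), did not pass the test across all clusters (adjusted p = 0.50). Mir320, Mir139 and Mir383 were the other conserved hairpins above the 95th percentile, with mean log2 signals from 7.91 to 8.29, close to it. Of the 2 Mir325 clusters, that of chromosome 13 was above it (8.12). The Mir325 cluster of the X chromosome, where RefSeq places this hairpin, was not (3.66). Of the 12 members with the highest means, differences between shSnail and control ran from -0.12 to 0.26, and none passed the test.

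The comparison of shSnail with control asks which microRNA clusters differ when both Snail hairpins form 1 group. Across all 65770 clusters 0.432% were called lower and 0.210% higher in shSnail cells (limma, adjusted p below 0.05). Among the 606 microRNA clusters 2 were lower (0.330%) and 0 higher, a share close to that background. At an unadjusted p below 0.05, 14 microRNA clusters were lower and 22 higher (2.31% and 3.63%), compared to 4.65% and 5.45% of all clusters. The median difference of the members was 0.02 on the log2 scale, compared to 0.00 over all clusters, and 90% of the members lay between -0.22 and 0.31.

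Mir5108 gave the largest decrease of any member. Its log2 signal was 4.26 and 4.69 in sh1 cells and 4.54 and 4.45 in sh2 cells, against 5.82, 5.85 and 5.41 in control cells. All 4 shSnail arrays lay below all 3 control arrays. The cluster averaged 4.49 ± 0.18 in shSnail cells (SD, n = 4) and 5.69 ± 0.25 in control cells (SD, n = 3), a difference of -1.21 (standard error 0.15, adjusted p = 0.045). The control mean did not reach the negative controls' 95th percentile, and the shSnail mean was under their median. Mir5108 lies within the span of Macroh2a2, which encodes a macroH2A histone variant. That gene's own cluster was at 4.18, 4.11, 4.18 and 4.03 in shSnail cells, against 4.11, 4.19 and 3.98 in control cells. Whether the hairpin and the gene share a strand was not tested, so the gene's cluster need not read the transcript that holds Mir5108.

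Mir708, a hairpin within the teneurin gene Tenm4, was the other member called lower. It had log2 signals of 4.10 and 4.14 in sh1 cells and 4.23 and 3.98 in sh2 cells, against 4.78, 4.76 and 5.01 in control cells. The groups did not overlap, and sh2 and sh1 cells differed by -0.01 (standard error 0.12). The means were 4.11 ± 0.10 in shSnail cells (SD, n = 4) and 4.85 ± 0.14 in control cells (SD, n = 3), a difference of -0.74 (standard error 0.086, adjusted p = 0.037). Every one of these values was close to or under the negative control median of its array, which ran from 4.92 to 5.20 on the shSnail arrays and from 4.83 to 4.86 on the control arrays. The Tenm4 cluster was at 5.68, 5.72, 5.64 and 5.71 in shSnail cells, against 5.92, 5.94 and 5.77 in control cells (difference -0.19, standard error 0.046, adjusted p = 0.23). With each hairpin on its own neither member passed: the differences of sh1 and sh2 from control were -0.73 and -0.75 for Mir708 (adjusted p = 0.16 and 0.075) and -1.22 and -1.20 for Mir5108 (adjusted p = 0.17 and 0.093). Neither call held when any 1 of the 7 arrays was left out: the adjusted p was then 0.070 to 0.13 for Mir708 and 0.056 to 0.18 for Mir5108, with differences from -0.79 to -0.66 and from -1.35 to -1.13.

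**Figure D2:**
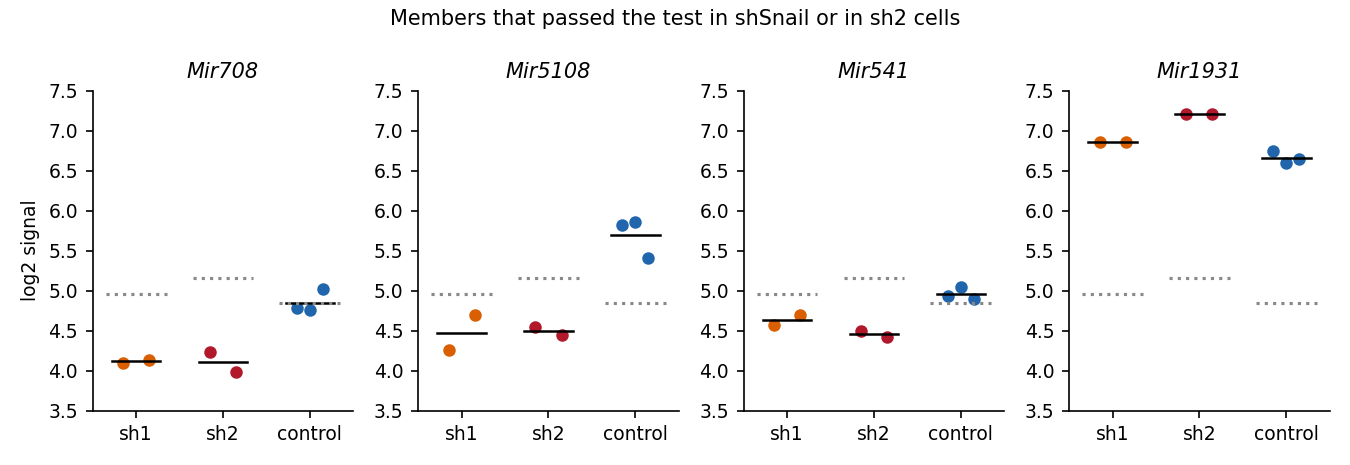
Log2 signal (y axis) of the 4 members that passed a test, in sh1 cells (2 arrays), sh2 cells (2 arrays) and control cells (3 arrays). Points are arrays, black lines are group means and dotted lines are the group means of the negative control medians. Mir708 and Mir5108 passed in shSnail against control and with neither hairpin alone, and Mir541 and Mir1931 passed in sh2 against control.

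In all, 11 microRNA clusters had all shSnail arrays below all control arrays (1.82%) and 18 had all of them above (2.97%), compared to 4.01% and 5.08% of all clusters. The lower ones included Mir320, the only one above background. Its log2 signal was 8.17, 7.97, 8.21 and 7.64 in shSnail cells, against 8.34, 8.95 and 8.76 in control cells (difference -0.68, standard error 0.20, adjusted p = 0.35). The higher ones included 4 above background: Mirlet7d, Mir1191, Mir1983 and the Mir467f cluster of chromosome 18. Mir1191 was at 14.35, 14.23, 14.58 and 14.36 in shSnail cells, against 13.61, 13.74 and 13.98 in control cells, a difference of 0.60 (standard error 0.12, adjusted p = 0.14). Mir1983 had the largest increase of any member, with 9.23, 9.33, 9.19 and 10.7 in shSnail cells against 8.31, 8.18 and 9.11 in control cells. Its difference of 1.07 (standard error 0.46) was far from passing (adjusted p = 0.51), and 1 sh2 array stood well above the rest. The remaining changes named by size among members above background were those of Mir466f-1 of chromosome 19 (0.67, adjusted p = 0.49) and of Mir325 of chromosome 13 (0.60, adjusted p = 0.62) upward, and those of Mir1954, Mir703, the Mir3470b cluster of chromosome 7 and Mir139 downward (-0.12 to -0.04, adjusted p from 0.55 to 0.90).

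**Figure D3:**
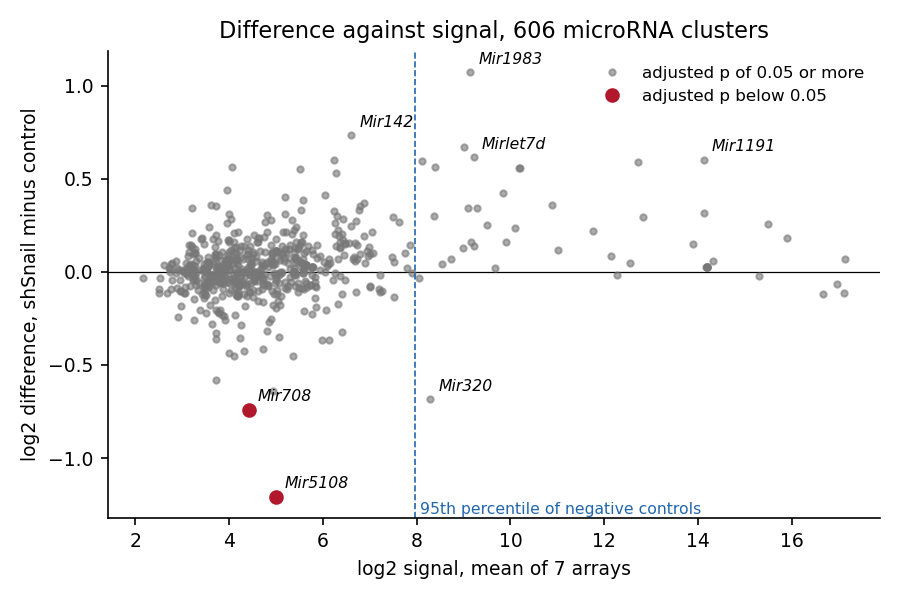
Log2 difference, shSnail (4 arrays) minus control (3 arrays), of each of the 606 microRNA clusters (y axis) against its log2 signal averaged over the 7 arrays (x axis). Red points are the 2 members with adjusted p below 0.05, Mir708 and Mir5108. Both lie left of the dashed line at 7.97, the 95th percentile of the negative controls, and no member right of it passed.

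Each hairpin was then set against the control on its own, in a fit of all 3 groups. In sh1 cells 0 of the 606 microRNA clusters passed in either direction, against a background of 0.0821% lower and 0.0517% higher. At an unadjusted p below 0.05, 15 members were lower and 16 higher (2.48% and 2.64%), compared to 3.43% and 3.91% of all clusters. In sh2 cells 1 member was lower and 1 higher (0.165% each), against a background of 0.477% lower and 0.809% higher. At an unadjusted p below 0.05, 14 members were lower in sh2 cells and 51 were higher (2.31% and 8.42%), compared to 4.21% and 6.48% of all clusters. The negative controls moved in the same direction: their median difference from control was 0.10 in sh1 cells and 0.27 in sh2 cells on the log2 scale, and their part in these counts was not tested.

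Mir541 was the member called lower in sh2 cells. It belongs to the imprinted Dlk1-Dio3 region, where a long array of microRNAs is expressed from the maternal chromosome, and RefSeq places it within Mirg. Its log2 signal was 4.49 and 4.42 in sh2 cells and 4.57 and 4.70 in sh1 cells, against 4.94, 5.04 and 4.90 in control cells. All 4 shSnail arrays lay below the control arrays. The difference of sh2 from control was -0.50 (standard error 0.062, adjusted p = 0.047), and that of sh1 was -0.32 (adjusted p = 0.23). This call was lost without any 1 of the 7 arrays (adjusted p from 0.062 to 0.16). No member of the Dlk1-Dio3 list (35 of 52 measured) was above background in any group. Of these, 20 were lower and 15 higher in shSnail cells by sign, with a median difference of -0.02, and 0 passed in shSnail and 1, Mir541, in sh2 cells.

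Mir1931 was the member called higher in sh2 cells. It had log2 signals of 7.20 and 7.21 in sh2 cells and of 6.85 on both sh1 arrays, against 6.74, 6.59 and 6.64 in control cells. The difference of sh2 from control was 0.55 (standard error 0.047, adjusted p = 0.032), that of sh1 was 0.19 (adjusted p = 0.35), and sh2 lay 0.36 above sh1 (adjusted p = 0.36). The call was lost without any 1 of the sh1 or control arrays. Without either sh2 array that group held 1 array, so the call cannot be judged there. The difference of sh2 from control ran from 0.51 to 0.59 as single arrays were left out. The mean exceeded 87.5% of the negative controls. Mir1931 lies within Cdk17, which encodes a cyclin-dependent kinase, and the Cdk17 cluster differed in the other direction: 9.85 and 9.93 in sh2 cells and 10.01 and 10.01 in sh1 cells, against 10.09, 10.14 and 10.16 in control cells (sh2 against control -0.24, standard error 0.032, adjusted p = 0.057).

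The direct comparison of sh2 with sh1 called 0 clusters of any kind (limma, background 0.0% in both directions), and at an unadjusted p below 0.05 it gave 12 members lower and 35 higher in sh2 cells (1.98% and 5.78%), compared to 2.26% and 3.74% of all clusters. On 63 members (10.4%) both sh2 arrays lay above all 5 other arrays, compared to 6.74% of all clusters, and on 20 (3.30%) both lay below, compared to 4.82%. The negative controls were higher in sh2 than in sh1 cells as well, by a median of 0.18, with 63.4% of them above 0. With values centered on the negative controls, the median difference of sh2 from sh1 was -0.20 for the members and -0.21 for all clusters. The part of this shift in the counts was not tested. Of the 63 members, several belonged to pairs of neighboring hairpins. Mir221 had log2 signals of 6.41 and 6.92 in sh2 cells and 5.98 and 5.62 in sh1 cells, against 5.64, 5.79 and 6.02 in control cells. Mir222 had 4.44 and 4.52 in sh2 cells and 3.80 and 3.78 in sh1 cells, against 3.52, 3.64 and 3.93 in control cells. The products of this pair are known to lower the cell cycle inhibitor p27. The differences of sh2 from sh1 were 0.87 (standard error 0.24, adjusted p = 0.59) for Mir221 and 0.69 (standard error 0.14, adjusted p = 0.41) for Mir222. Neither gene reached the background threshold, and both were chosen after their values were seen.

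On chromosome 13, Mirlet7d and Mirlet7f-1 were higher in sh2 cells by sign and their neighbor Mirlet7a-1 was not. Mirlet7f-1 was at 6.99 and 7.29 in sh2 cells and 6.82 and 6.71 in sh1 cells, against 6.82, 6.53 and 6.45 in control cells. Mirlet7a-1 was at 4.75 and 4.43 in sh2 cells and 4.73 and 4.75 in sh1 cells, against 4.75, 4.79 and 4.73 in control cells. The differences of sh2 from control were 0.95 (adjusted p = 0.12), 0.54 (adjusted p = 0.26) and -0.17 (adjusted p = 0.58) for Mirlet7d, Mirlet7f-1 and Mirlet7a-1. Over all members that RefSeq places at a position of their own, 232 of 558 lay within 10 kb of another, in 51 groups. Across the 181 adjacent pairs the differences correlated with Pearson's r = 0.35 in shSnail, 0.12 in sh1 and 0.40 in sh2 cells against control (Spearman's rho 0.26, 0.14 and 0.24). These pairs share arrays and, in part, repeat-rich sequence, and are not independent. The largest group held 64 members, in the Sfmbt2 intron.

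**Figure D4:**
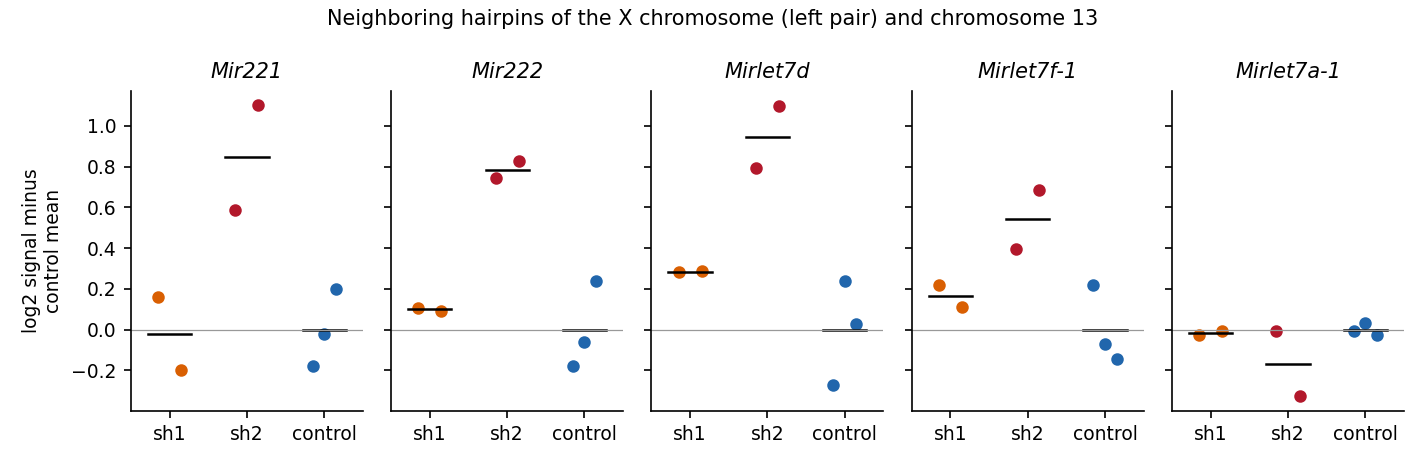
Log2 signal minus the mean of the 3 control arrays (y axis) for 5 neighboring hairpins in sh1 (2 arrays), sh2 (2 arrays) and control cells (3 arrays). Points are arrays and black lines are group means. Mir221, Mir222, Mirlet7d and Mirlet7f-1 were highest on the sh2 arrays and Mirlet7a-1 was not, and none of these differences passed the test.

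The microRNAs most closely linked to Snail and the epithelial state lay at background in all 3 groups. Of the miR-200 family 4 of 5 members were measured, and none exceeded the 95th percentile of the negative controls in any group. Mir200a had log2 signals of 4.52, 4.18, 4.40 and 4.23 in shSnail cells, against 4.31, 4.40 and 4.47 in control cells. Mir200b had 4.35, 4.26, 4.37 and 4.35 in shSnail cells, against 4.42, 4.30 and 4.08 in control cells. Mir200c was at 4.23 on all 4 shSnail arrays, against 4.23, 4.30 and 4.15 in control cells. The 3 were all under the negative control median, and shSnail and control arrays overlapped in each. Mir141 was at 5.17, 5.17, 5.10 and 5.33 in shSnail cells, against 5.17, 5.31 and 4.81 in control cells. The 4 differences ran from -0.06 to 0.10, with standard errors from 0.036 to 0.13 and adjusted p of 0.74 or more. At these levels neither a change of these clusters nor its absence could be read, and the array does not read the mature strands alone.

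The miR-34 family, which acts downstream of p53, was measured in full. Mir34b had log2 signals of 7.26, 6.84, 7.08 and 6.98 in shSnail cells against 6.98, 6.81 and 6.92 in control cells, above 88.7% of the negative controls. Mir34a was at 5.28, 5.10, 5.22 and 5.18 in shSnail cells, against 5.18, 5.18 and 5.04 in control cells. Mir34c was at 3.99, 4.21, 4.05 and 4.05 in shSnail cells, against 4.05, 3.70 and 3.95 in control cells. All 3 differences were above 0 (0.06 to 0.17), none passed (adjusted p of 0.61 or more), and the arrays of the groups overlapped in each. Mir203, a microRNA of epithelial differentiation, was at 3.47, 3.51, 3.45 and 3.37 in shSnail cells, against 3.41, 3.64 and 3.40 in control cells. The 7 measured members of 14 other microRNAs tied to epithelial-mesenchymal transition had a median difference of 0.03, and 0 passed in either direction. The largest of these was that of Mir335, within Mest (-0.33, adjusted p = 0.53).

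**Figure D5:**
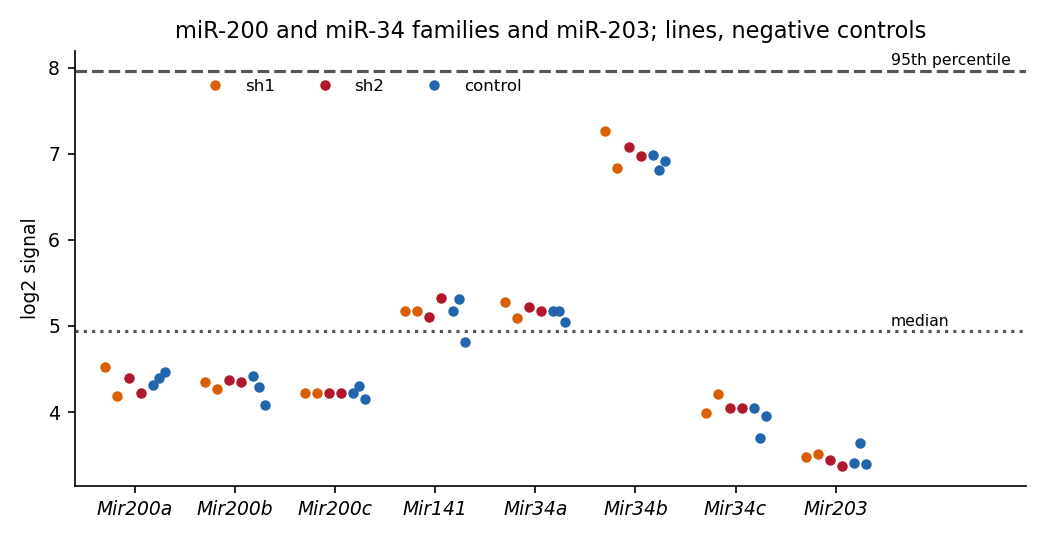
Log2 signal (y axis) of the measured miR-200 and miR-34 family members and Mir203 on each array, in sh1 (2 arrays), sh2 (2 arrays) and control cells (3 arrays). The dotted and dashed lines are the median (4.94) and the 95th percentile (7.97) of the negative controls over the 7 arrays. All 8 microRNAs lie below the dashed line, and the arrays of the groups overlap in each.

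MicroRNAs induced by NF-κB, which limits its own signaling in part through miR-146, were also at background: 5 of 10 were measured, 0 were above the 95th percentile, and 0 passed in either direction. By sign 3 were lower and 2 higher in shSnail cells, with a median difference of -0.09. The 2 higher ones were Mir221 and Mir222, described above, at 0.41 and 0.44 (adjusted p = 0.65 and 0.60), and the lower ones included Mir9-3 at -0.11 (adjusted p = 0.67). Mir146, the gene of miR-146a, was at 3.39, 3.63, 3.24 and 3.62 in shSnail cells, against 3.89, 4.28 and 3.98 in control cells. The groups did not overlap, with both far under the negative control median. The difference was -0.58 (standard error 0.14, adjusted p = 0.23). Mir146b, which has the same seed, was at 3.84, 3.81, 3.86 and 3.82 in shSnail cells, against 3.84, 4.06 and 3.87 in control cells (difference -0.09, adjusted p = 0.63).

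The hairpins of GIPZ vectors are built into a backbone taken from human miR-30, so the miR-30 genes were looked at in the 3 transduced groups. All 7 were measured, with mean log2 signals from 2.96 to 7.06, and none was above the 95th percentile. Mir30a was at 3.61, 3.65, 3.67 and 3.53 in shSnail cells, against 3.65, 3.65 and 3.83 in control cells, above only 14.3% of the negative controls. The median difference of the family was 0.10, with 5 above 0 and 2 below, and 0 passed. Of the let-7 family 12 of 14 were measured, with 6 differences above 0 and 6 below and a median of -0.01. Of the miR-17-92 cluster and its paralogs, which drive proliferation, 6 of 15 were measured, the median difference was 0.05 and 0 passed. Of the p53-induced and cell cycle list 7 of 8 were measured, 6 of them above 0 by sign, with a median of 0.11 and 0 calls.

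MicroRNAs of other cell types gave no signal above background. Of the fibroblast and smooth muscle list 4 of 7 were measured, with mean log2 signals from 3.25 to 5.19, a median difference of -0.07 and 0 calls. Of the blood and endothelium list 2 of 5 were measured. Mir150, of lymphocytes, averaged 2.75 over the arrays. Mir142, of blood cells, was at 6.57, 6.62, 7.02 and 7.44 in shSnail cells, against 6.62, 5.36 and 6.55 in control cells. It stayed under the background threshold, with 1 control array far below the other 2, and its difference of 0.73 (standard error 0.39) did not pass (adjusted p = 0.595).

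The repeat-rich stems Mir466, Mir467, Mir669 and Mir297 formed 87 clusters, 68 of them on chromosome 2, where an intron of Sfmbt2 holds a long rodent array of such hairpins. Of the clusters on chromosome 2, 6 of 68 were above background, and of those on other chromosomes 13 of 19. By sign 75 differences were above 0 in shSnail cells and 12 below, with a median of 0.07, and 0 passed. These counts include copies with the same 7 values, such as Mir669a clusters at a difference of 0.00: counted once for each set of equal values, 54 of 65 were above 0 and 11 below, with a median of 0.09. Of the 19 above background, 19 were above 0 in shSnail, 17 in sh1 and 19 in sh2 cells, with medians of 0.30, 0.16 and 0.47. The other 30 members above background had medians of 0.04, 0.03 and 0.06. The negative controls were higher by sign as well, by a median of 0.18 in shSnail, 0.10 in sh1 and 0.27 in sh2 cells, with 65.8% of them above 0 in shSnail cells. Their part in the shift of the repeat-rich members was not tested. When values were centered on the negative controls, the median over all clusters moved to -0.21 and that of the members to -0.19 in shSnail cells.

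Within the list of the Sfmbt2 intron, 39 of 43 symbols were measured by 47 clusters, of which 12 were above background and 0 passed. By their identifiers 39 of the 47 clusters lie on chromosome 2, 6 of them above background, and 8 on other chromosomes, 6 of them above it. The 4 with the highest means, none of them placed on chromosome 2 by its identifier, were Mir669e, Mir669m-2, Mir669h and Mir466f-3. Mir669e was at 14.3, 13.9, 14.8 and 14.0 in shSnail cells, against 13.9, 13.9 and 14.1 in control cells. The differences of the 4 ran from 0.29 to 0.56, with standard errors from 0.17 to 0.34 and adjusted p from 0.53 to 0.64. The cluster of Sfmbt2 itself, which encodes a Polycomb-related protein, was at 4.20 on all 4 shSnail arrays and averaged 4.21 in control cells.

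Genes whose span holds a hairpin, called hosts here, were read next to it. RefSeq placed 295 members inside the span of exactly 1 other gene with a cluster of its own, 200 genes in all. Whether hairpin and gene share a strand, or the hairpin lies in an intron, was not tested here or for the single genes named above. Of the 200 hosts 97 were above background, while 17.7% of all clusters exceeded the 95th percentile on at least 1 array, so the shares of calls come from sets of unlike signal. In shSnail cells 3 of the 200 hosts were lower and 0 higher, compared to 0.432% lower and 0.210% higher over all clusters. Only 1 of the 3 was above background, and Pde2a was not. The differences were, for Pde2a, a phosphodiesterase and host of Mir139, -0.72 (adjusted p = 0.043), for Tmem184b, host of Mir1943, -0.20 (adjusted p = 0.035), and for Ttc39c, host of Mir1948, -0.85 (adjusted p = 0.014). The microRNAs inside them differed by -0.04, 0.14 and -0.11, and 0 of the 3 passed. In sh2 cells 3 hosts were lower and 4 higher, compared to 0.477% lower and 0.809% higher over all clusters. Of these hosts, 1 of the lower and all 4 of the higher were above background. The hosts called in sh2 cells held 8 microRNAs, of which 0 passed. Across the 107 pairs whose host was above background, the differences of microRNA and host correlated with Pearson's r = 0.16 in shSnail, 0.0044 in sh1 and 0.25 in sh2 cells (Spearman's rho 0.01, -0.02 and 0.12). These pairs share arrays and some share a host, and are given as a description.

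The genes that make microRNAs were mostly above background. Of 25 processing genes 19 were measured by a cluster with 1 symbol, 14 of them above the 95th percentile of the negative controls. Drosha averaged 12.7 ± 0.041 in shSnail cells (SD, n = 4) and 12.6 ± 0.041 in control cells (SD, n = 3), and Dicer1 10.9 ± 0.098 in shSnail cells and 10.8 ± 0.095 in control cells. Neither passed (adjusted p = 0.60 and 0.52). Ago2, the Argonaute with slicing activity, was at 12.17, 12.41, 12.27 and 12.37 in shSnail cells, against 11.99, 11.86 and 11.94 in control cells, a difference of 0.38 that did not pass (standard error 0.066, adjusted p = 0.11). The single call in the list was Zc3h12a, which encodes the RNase regnase-1 that cuts cytokine messenger RNAs and, as known from human cells, microRNA precursors. It was at 6.13, 6.29, 6.42 and 6.62 in shSnail cells, against 8.14, 7.997 and 7.83 in control cells, a difference of -1.62 (standard error 0.14, adjusted p = 0.015). The median difference over the 19 genes was 0.05.

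Sequence features followed the differences weakly. The 425 hairpins matched on the cluster's chromosome were 39 to 132 bases long and had a GC content from 26.2% to 83.1%. Across them, GC content and the shSnail difference gave Pearson's r = 0.05 (Spearman's rho 0.05), and length gave 0.10 (rho 0.04). Over all 606 members, the shSnail difference went up with the mean signal (r = 0.27, rho 0.29), as did that of sh2 (r = 0.30, rho 0.29). Replicates were often tied: 69.1% of the members held at least 2 equal values among the 7 arrays, compared to 79.9% of all clusters. The median SD of a member was 0.062 in sh1, 0.085 in sh2 and 0.11 in control cells. Over all clusters it was lower, at 0.034, 0.049 and 0.061. Of 74 seeds shared by several matched members, the let-7 seed was the most frequent, and its 12 clusters had a median difference of -0.02 with 0 calls.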

How the data were processed

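RNA of 7 HM-1 samples (sh1, 2; sh2, 2; control, 3) had been hybridized to Affymetrix Mouse Transcriptome Array 1.0. The deposited table holds log2 signals, 1 column per array, made by the authors with Affymetrix Expression Console; background correction, probe summary, its version and the genome build were not stated there or in the labels used. Of 72688 entries, 65770 are transcript clusters and 5222 negative controls, and 0 value columns were left unused. The values were used as deposited. Array number limits precision. Differences were fitted with limma 3.58.1 (R 4.3.3; lmFit and eBayes) over all clusters with Benjamini-Hochberg adjustment, as shSnail against control in 2 groups and as sh1, sh2 and control in 3 groups. The fits were tested on simulated data. A member was called above background where a group mean exceeded the 95th percentile of the negative controls' group means. Symbols came from the platform annotation and positions from RefSeq (GRCm38.p6), matched by gene number or symbol; 37 unmapped entries with a microRNA symbol and 541 clusters with a microRNA and another symbol were not members. Members named were those called (up to 5 each way in sh1, in sh2 and between them), the 12 brightest, the miR-200 and miR-34 families and Mir203, up to 4 above background of each other list, and the 5 lower and 5 higher by change above background. Other microRNAs named, such as Mir221, Mir222, Mir142, Mir146 and Mir335, were picked with their values in view. The members and lists were chosen with earlier results of these data known. The alternatives are given with their effect in the closing section.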

Additional observations from a re-analysis of the deposited data

Results flagged for a closer look

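The 541 clusters that carry a microRNA symbol together with another symbol were outside the members described above. Of these, 225 carry another gene, and 6 of the 225 passed the test in shSnail cells. They were 3 lower and 3 higher (1.33% each way), compared to 0.432% lower and 0.210% higher over all clusters. Of the 225 clusters, 44.9% were above background, while 17.7% of all clusters exceeded the 95th percentile on at least 1 array. These shares of calls come from sets of unlike signal, and a comparison at equal signal was not made. The clusters named for Glul with Mir8114, Ecm1 with Mir7014 and Pou2f2 with Mir6537 differed by -0.70, -0.94 and -0.92 on the log2 scale (adjusted p = 0.027, 0.018 and 0.0073), the last of them under the background threshold. Those named for Hipk3 with Mir1902, Igf2bp1 with Mir3063 and Ank with Mir7117 differed by 0.39, 0.99 and 0.39 (adjusted p = 0.011, 0.027 and 0.038). All 6 hold a second, protein-coding gene, and the hairpin and that gene cannot be told apart in them. Of the 316 clusters with microRNA names only, 0 passed (limma).

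Among the 35 members named by rule, 2 had 1 shSnail array far from the other 3. Mir1983 reached 10.7 on the sh2 replicate 2 array, and Mir139 was at 8.09 on the sh1 replicate 1 array, while none of its 3 other shSnail values exceeded 8.01. Chance alone sets apart about 1 in 20 such groups.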

How the results depend on the processing

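Counts of called members depended on the setting. They are given without the share of all clusters called in the same setting, so they do not show whether the members differ from that share. With values centered on the negative controls, which moved the median of all clusters by -0.21 in shSnail, -0.10 in sh1 and -0.31 in sh2 cells, 33 members were lower and 3 higher in shSnail cells, 2 lower in sh1 cells, 329 lower and 11 higher in sh2 cells, and 104 lower and 7 higher in sh2 against sh1 cells, and the median member difference in shSnail cells was -0.19. In shSnail cells, members called lower numbered 1 with a trended, robust variance, and 0 among clusters above the 95th percentile of negative controls, in the 3-group fit and by the study's analysis of variance threshold. Members called higher numbered 2 with that filter, 1 in the 3-group fit and 1 after quantile normalization. In sh2 cells, members called lower and higher numbered 3 and 7 with cluster-median centering, 2 and 2 with a filter at the 40th percentile, 0 and 6 with the 95th percentile filter, and 3 and 4 after quantile normalization, and the trended, robust variance left 0 lower. Leaving out 1 array gave 0 to 0 lower and 0 to 1 higher in shSnail, 0 to 0 and 0 to 3 in sh1, 0 to 7 and 0 to 11 in sh2 cells, and 0 to 5 and 0 to 6 in sh2 against sh1, the highest sh2 counts without sh2 replicate 1. Where this left a group with 1 array, that array was assumed to vary like the others. The median member difference was then 0.0022 to 0.032. Above the 99th percentile and above the median of the negative controls on all arrays lay 22 and 208 members. Adding the unmapped entries, chosen after seeing the data, changed no member's call.

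Signs of small differences turned as well. With negative-control centering the differences were -0.15 for Mir684-2, -0.15 for Mir34a, -0.14 for Mir200b, -0.18 for each Mir684-1 cluster, -0.11 for Mir141, -0.034 for Mir34c, -0.074 for Mir34b, -0.14 for Mir3473a and -0.025 for Mir692-1, while Mir1191, Mir1983 and Mir320 passed (0.40, 0.87 and -0.89). Cluster-median centering gave 0.0047 for Mir200c, and quantile normalization gave 0.0094 for Mir200c and -0.033 for each Mir684-1 cluster. Without 1 array the ranges of the members whose sign turned were -0.034 to 0.17 for Mir684-2, -0.023 to 0.14 for Mir200b, -0.039 to 0.15 for Mir684-1, -0.046 to 0.20 for Mir141, -0.040 to 0.037 for Mir200c, -0.11 to 0.067 for Mir139, -0.074 to 0.046 for Mir203, -0.027 to 0.15 for Mir3473a and -0.080 to 0.039 for Mir3470b of chromosome 16. The cause was not tested.

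With the replicate number as a block, 0 members were lower in shSnail cells and 0 lower and 0 higher in sh2 cells, and the differences were -0.023 for Mir200b, -0.029 for each Mir684-1 cluster, -0.046 for Mir141 and 0.023 for Mir3470b of chromosome 16. Same-numbered control and shSnail arrays deviated with correlations from -0.21 to -0.07, and same-numbered sh1 and sh2 arrays with 0.16. With so few arrays per hairpin, the deviations within a hairpin group mirror each other. Differently numbered sh1 and sh2 arrays therefore gave -0.16. For this reason the correlations cannot decide whether same-numbered arrays share more than a number. Most members lay at the signal of the negative controls, where neither a change nor its absence can be read.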

Other observations

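Of the 37 array entries that carry a microRNA symbol but no genome position, 3 were above the 95th percentile of the negative controls on all 7 arrays: Mir6240 at 16.85, 16.96, 17.07 and 16.98 in shSnail cells, against 17.30, 17.05 and 17.21 in control cells, and the entries of Mir3472 and Mir3471-2. In a fit chosen after seeing the data, which added the unmapped entries, 0 of the 37 passed in shSnail cells (3 lower and 1 higher at an unadjusted p below 0.05), and 1, Mir8117, passed in sh2 cells (difference 0.34, standard error 0.028, adjusted p = 0.031).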
